A study of Mus musculus with 34 samples.

Results

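The Fc gamma receptors are the cell surface proteins through which blood cells bind immunoglobulin G. The 5 genes described here are Fcgr1, Fcgr2b, Fcgr3 and Fcgr4, the classical receptors of the mouse, and Fcer1g, the signalling subunit that the activating ones share. They were chosen by name out of 54532 genes counted, with earlier results of these data known. No rule on their values was used, and all 5 passed the filter on low counts in every comparison. Blood of wild-type (WT) mice was sequenced after phosphate-buffered saline (PBS, 9 mice), after ALY688, an agonist of adiponectin receptors (10 mice), after lipopolysaccharide (LPS, a bacterial outer membrane component, 4 mice) and after ALY688 with LPS (7 mice). The series text speaks of plasma for a first experiment, with or without ALY688, and of whole blood for a second one under sublethal LPS, while each sample is labelled blood. Mice with and without LPS may therefore come from separate experiments, so that an effect of LPS and one of the experiment cannot be told apart. Each library is 1 numbered mouse. The sources used here give no dose, time after injection, sex or age.

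Activating Fc gamma receptors bind clustered immunoglobulin G and signal through the ITAM of the paired gamma chain encoded by Fcer1g, which recruits Syk and leads to phagocytosis, degranulation and cytokine release. Fcgr1 encodes the high-affinity receptor of monocytes and macrophages, Fcgr3 a low-affinity receptor of most myeloid cells and natural killer cells, and Fcgr4 a receptor of neutrophils and nonclassical monocytes. Fcgr2b encodes the inhibitory receptor, which carries an ITIM of its own, recruits the phosphatase SHIP-1 and is the only classical Fc gamma receptor of B cells. Fcer1g also serves other receptors, among them the collagen receptor GPVI of platelets and several C-type lectins.

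In GENCODE M21 on GRCm38, Fcgr1 (ENSMUSG00000015947) lies at chr3:96282909-96293969 on the minus strand. The other 4 genes lie within 275749 bases of chromosome 1: Fcgr2b at chr1:170958617-170976547, Fcgr4 at chr1:171018920-171029761, Fcgr3 at chr1:171051174-171064935 and Fcer1g at chr1:171229572-171234365. Fcgr4 alone is on the plus strand. The sources used here do not name the genome build or strand setting behind the counts, so these positions serve to place the genes only. Exons of Fcgr2b overlap an antisense gene, Gm38204, which held 28 counts over all 30 libraries, far below the counts of Fcgr2b. Fcgr3 and Fcgr2b share stretches of sequence: 9.58% of the 50-base windows of Fcgr3 exons and 2.92% of those of Fcgr2b occur in the other gene, and no other pair of the 5 genes shares such a window. Of the 100-base windows, 2.54% of those of Fcgr3 and 0.753% of those of Fcgr2b were shared. A read that lies wholly within a shared stretch cannot be assigned by its sequence to 1 of the 2 genes.

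The starts of the 4 receptor genes are shown because the 3 activating receptors had larger fold changes than Fcgr2b in both comparisons across LPS. The sequences are from RefSeq on GRCm38.p6, each 150 bases, from 130 bases before to 20 bases after the start, written 5′ to 3′ along the gene. The windows are chr3:96293950-96294099 (Fcgr1), chr1:171059384-171059533 (Fcgr3) and chr1:170976052-170976201 (Fcgr2b) on the minus strand, and chr1:171018796-171018945 (Fcgr4) on the plus strand. For Fcgr3 the more upstream of the 2 listed starts is given. Capitals mark matches, on either strand, to 3 motifs: the GAS element TTCNNNGAA, the PU.1 motif GAGGAAG, found here as its reverse complement, and the core GAAANNGAA of the interferon-stimulated response element.
Fcgr1: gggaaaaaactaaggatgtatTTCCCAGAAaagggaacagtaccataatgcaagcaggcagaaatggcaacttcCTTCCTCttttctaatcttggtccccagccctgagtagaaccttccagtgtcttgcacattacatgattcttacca
Fcgr3: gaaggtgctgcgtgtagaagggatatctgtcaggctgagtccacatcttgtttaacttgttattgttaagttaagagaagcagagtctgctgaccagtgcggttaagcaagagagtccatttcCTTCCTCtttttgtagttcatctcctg
Fcgr4: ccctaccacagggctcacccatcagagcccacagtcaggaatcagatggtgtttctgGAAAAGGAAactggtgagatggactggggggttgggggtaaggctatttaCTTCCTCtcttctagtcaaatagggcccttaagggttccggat
Fcgr2b: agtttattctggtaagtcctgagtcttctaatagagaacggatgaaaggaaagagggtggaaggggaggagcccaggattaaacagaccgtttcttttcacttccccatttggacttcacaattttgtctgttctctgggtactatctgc

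Fcgr1 held a GAS match at −109 and a PU.1 match at −56 from the start. Fcgr4 held a PU.1 match at −23 and a response element core at −73, and Fcgr3 a PU.1 match at −7. In the full RefSeq windows of 300 bases, Fcgr2b and Fcer1g held none of the 3 motifs. Of 32851 promoters of that length, 8.30% held the GAS letters, 13.6% the PU.1 letters and 8.56% the response element core. These are matches of letters, and no binding was measured.

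Libraries held 9554964 to 17338214 counts, of which globin transcripts took 18.4% to 64.3%. Levels are given as CPM after TMM scaling, which sets the libraries to a common scale over genes. In 6 of the 30 libraries under 16000 genes had any count. These were from 3 PBS mice (5, 6 and 9), from mouse 7 of the ALY688 group and from mice 6 and 8 of the group given both agents, and they are called libraries of few genes. Among the 19 mice without LPS, the 4 such libraries held 173 to 376 CPM of Fcer1g against 47.0 to 158 in the other 15. They held 16.3 to 18.8 CPM of Fcgr2b against 22.3 to 36.1. Neither pair of ranges overlaps on the TMM scale, so values for these 2 genes are given with and without those libraries where it matters. The TMM factors of these 4 libraries were 0.333 to 0.437, against 0.775 to 1.45 in the other 15, and a low factor raises CPM. In unscaled counts, PBS mouse 6 (737) and ALY688 mouse 7 (693) held the lowest Fcer1g of their groups. PBS mouse 9 (1546) held the highest of its group, and PBS mouse 5 held 1248. The lowest Fcgr2b counts were those of PBS mouse 5 (54) and ALY688 mouse 7 (68). In bulk blood, fewer cells of a type and less RNA per cell cannot be told apart.

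Without LPS, Fcer1g was by far the most abundant of the 5 transcripts, and Fcgr1 had the lowest median. Levels of different genes are compared per length of exons (RPKM, CPM per kilobase). With PBS the median was 128 RPKM for Fcer1g (70.5 to 430.5), 16.5 for Fcgr3 (9.19 to 27.6), 9.84 for Fcgr4 (5.08 to 16.1), 3.91 for Fcgr2b (2.81 to 6.23) and 1.96 for Fcgr1 (0.935 to 5.76). The range of Fcer1g stood clear of the others, while each of the 4 receptors overlapped its neighbour in this order. With ALY688 the medians stood in the same order, 101, 16.0, 6.52, 4.92 and 1.51 RPKM.

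With LPS the order of Fcgr3 and Fcgr4 was no longer clear. The medians were 343 RPKM for Fcer1g, 84.0 for Fcgr4, 68.5 for Fcgr3, 9.10 for Fcgr2b and 8.06 for Fcgr1, and Fcgr4 (59.9 to 109) overlapped Fcgr3 (48.8 to 100.3). Per length of the longest coding transcript, a choice made after the data were seen, Fcgr3 had the higher median, 88.3 against 84.0. Fcgr2b (8.17 to 10.5) and Fcgr1 (5.46 to 11.5) also overlapped. The length of Fcgr2b is the least certain, since its annotated exons sum to 5790 bases and its longest coding transcript has 3544. On the shorter length its median with LPS was 14.9 RPKM.

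The first comparison across LPS set the 4 mice given LPS against the 9 given PBS. Fcgr4, Fcgr3, Fcgr1 and Fcgr2b rose, by 8.47, 4.19, 3.05 and 2.17 times, while Fcer1g did not pass the test. A gene passed at an adjusted p below 0.05 in the quasi-likelihood F-test of edgeR. Of the 12353 genes tested, 38.7% passed in either direction and 20.9% were higher, against 4 of the 5 genes here.

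Fcgr4 held 81.8, 75.3, 137 and 129 CPM in LPS mice 2, 6, 7 and 8, against a lowest value of 6.38, a median of 12.4 and a highest of 20.3 with PBS. Every LPS mouse stood above every PBS mouse. The log2 fold change was 3.08 ± 0.27 (SE), with an adjusted p of 6.1e-07 in edgeR, and it ranked 67 by p among all genes tested. Fcgr3 held 95.8, 84.8, 174 and 142 CPM in the same mice, against 15.9 to 47.9 CPM with PBS (median 28.6). The groups did not overlap, and the log2 fold change was 2.07 ± 0.30 (edgeR adjusted p = 5.6e-05). The share of all genes whose groups separate in this way was not counted, in this or the next comparison.

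Fcgr1, the high-affinity receptor, held 26.7, 29.9, 14.1 and 15.0 CPM with LPS, against 2.42 to 14.9 with PBS (median 5.08). PBS mice 4 and 7, at 14.9 and 13.8 CPM, stood near the 2 lower LPS mice, and 3 of the 4 LPS mice lay above the highest PBS mouse. The log2 fold change was 1.61 ± 0.42 (edgeR adjusted p = 0.0069). With the globin share of each library as a covariate it was 1.78, and the adjusted p became 0.162.

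Fcgr2b, the inhibitory receptor, had the smallest rise of the 4. It held 47.3, 53.5, 51.8 and 60.7 CPM with LPS, against 16.3 to 36.1 with PBS (median 22.6). The groups did not overlap, and the log2 fold change was 1.12 ± 0.20 (edgeR adjusted p = 0.00033). Without the 3 PBS libraries of few genes it was 0.92 (adjusted p = 0.00038). With the globin share as a covariate it was 0.66, with an adjusted p of 0.177.

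Fcer1g held 264, 244, 365 and 336 CPM with LPS, against 61.6 to 376 with PBS (median 112). PBS mice 5 and 9, at 376 and 364 CPM, reached the level of the highest LPS mouse, and the next, PBS mouse 6, stood at 173. All 3 are libraries of few genes. The log2 fold change was 0.86 ± 0.44 (edgeR adjusted p = 0.134). Without these 3 libraries it was 1.58 ± 0.26 (adjusted p = 0.00041), and leaving out only PBS mouse 5 or only PBS mouse 9 also brought it past the threshold (1.10 and 1.09, adjusted p = 0.042 and 0.040). The count of genes that passed out of the 5 was thus 4 with all libraries and 5 without those of few genes. Over all genes, 4785 of 12353 passed with all libraries and 5296 of 12303 without those of few genes.

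**Figure D1:**
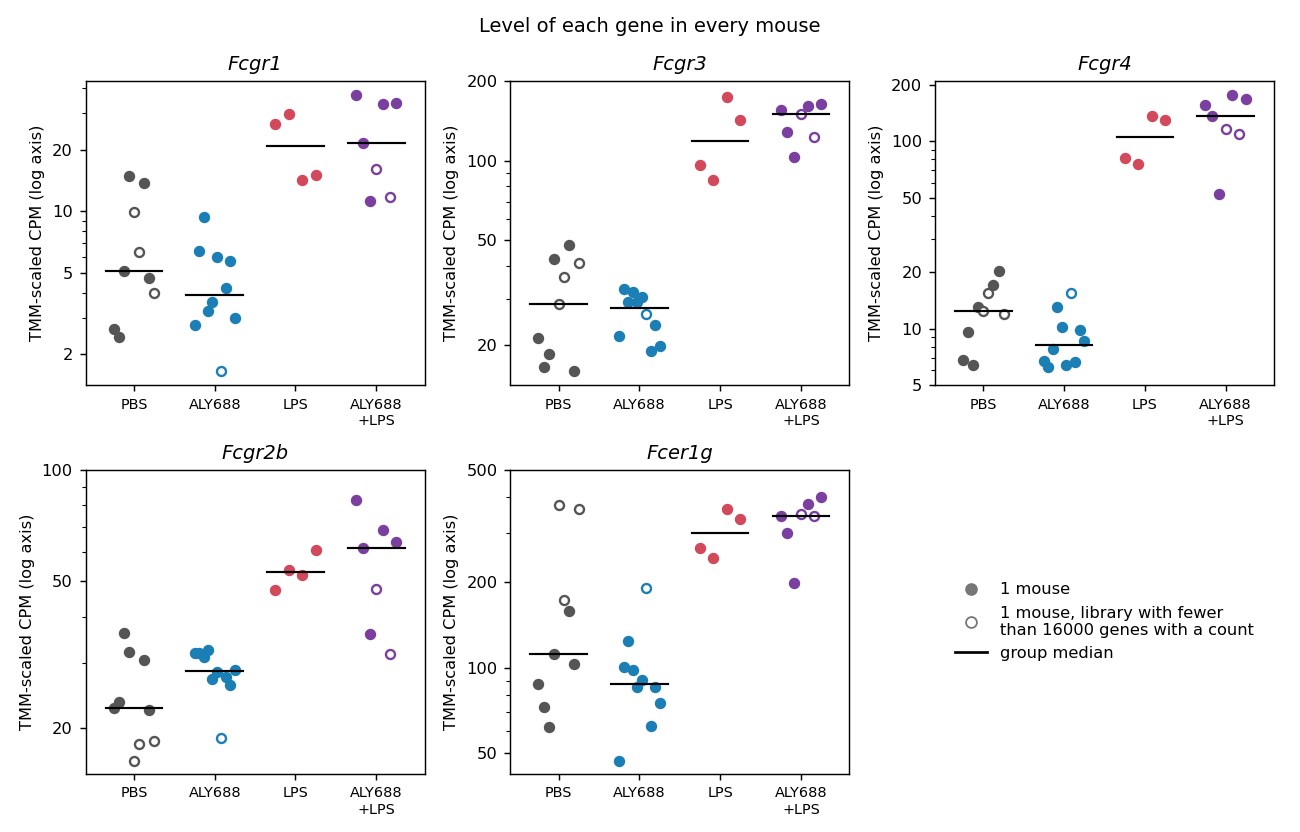
TMM-scaled CPM of each gene in every mouse (vertical log axis) for the 4 groups; each point is 1 mouse, open points are libraries of few genes, and the line is the group median. Fcgr3 and Fcgr4 separate all 11 mice with LPS from all 19 without, while 2 of the 3 open points of the PBS group reach the LPS level of Fcer1g and all 3 lie lowest of that group for Fcgr2b. The share of all genes that separate the mice in this way was not counted.

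The second comparison across LPS used the groups given ALY688: 7 mice given ALY688 with LPS against 10 given ALY688 alone. All 5 genes rose. Here 53.0% of the 12266 genes tested passed in either direction and 26.4% were higher, while 26.6% were lower.

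Fcgr4 ran from 52.6 to 177 CPM with LPS (median 136) and from 6.20 to 15.5 without (median 8.19). The groups did not overlap, and the log2 fold change was 3.87 ± 0.24 (edgeR adjusted p = 1.3e-10). Mouse 4 of the combined group held the lowest value, and the next held 109 CPM. Fcgr3 ran from 103 to 164 CPM against 19.1 to 32.5, with a log2 fold change of 2.42 ± 0.13 (adjusted p = 2.4e-11). Its standard error was the smallest of the 5 genes in this comparison.

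Fcgr1 ran from 11.2 to 37.0 CPM (median 21.5) against 1.66 to 9.32 (median 3.904), also without overlap. The log2 fold change was 2.35 ± 0.31 (edgeR adjusted p = 4.0e-06). Fcer1g ran from 199 to 402 CPM (median 344) against 47.0 to 191 (median 87.9), with a log2 fold change of 1.78 ± 0.23 (adjusted p = 2.1e-06). In this pair of groups the adaptor subunit separated every mouse with LPS from every mouse without it. Fcgr2b ran from 31.8 to 83.0 CPM (median 61.3) against 18.8 to 32.5 (median 28.5). Mouse 8 of the combined group, at 31.8 CPM, lay within the ALY688 range, and the other 6 lay above it. The log2 fold change was 0.98 ± 0.16 (adjusted p = 3.8e-05), the smallest log2 fold change of the 5 in this comparison.

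The remaining comparisons asked whether ALY688 changed the receptor transcripts, alone or under LPS. None of the 5 genes passed in ALY688 against PBS, in ALY688 with LPS against LPS, or in the interaction of both treatments. In each of the 3, edgeR called 0.0% of all genes (11708, 12741 and 13476 tested), with 1250, 463 and 1217 at an unadjusted p under 0.05, and DESeq2 called 0, 0 and 4.

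With ALY688 alone, Fcer1g had a log2 fold change of −0.81 (95% interval −1.54 to −0.09, edgeR adjusted p = 0.442) and Fcgr4 one of −0.49 (−0.97 to −0.01, adjusted p = 0.442). Without the libraries of few genes the value for Fcer1g was −0.23 and that for Fcgr4 −0.54. Fcgr1 stood at −0.61 (−1.33 to 0.12), Fcgr3 at −0.18 (−0.61 to 0.25) and Fcgr2b at 0.20 (−0.06 to 0.47), and each pair of groups overlapped. The interval of Fcgr2b leaves out a fall below 0.956 times and a rise above 1.38 times, the narrowest of the 5.

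Under LPS the log2 fold changes for ALY688 were 0.13 for Fcgr1 (95% interval −0.67 to 0.93), 0.18 for Fcgr3 (−0.29 to 0.64), 0.30 for Fcgr4 (−0.34 to 0.94), 0.07 for Fcgr2b (−0.43 to 0.57) and 0.13 for Fcer1g (−0.35 to 0.60). The edgeR adjusted p was 0.913 or higher for each. With only 4 mice given LPS alone, the intervals still hold changes of 1.48 to 1.92 times upward. The interaction, which is the difference between the ALY688 effects with and without LPS on the log2 scale, was 0.74 ± 0.55 for Fcgr1, 0.35 ± 0.32 for Fcgr3, 0.78 ± 0.38 for Fcgr4, −0.14 ± 0.26 for Fcgr2b and 0.93 ± 0.50 for Fcer1g. The smallest adjusted p of these was 0.506.

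**Figure D2:**
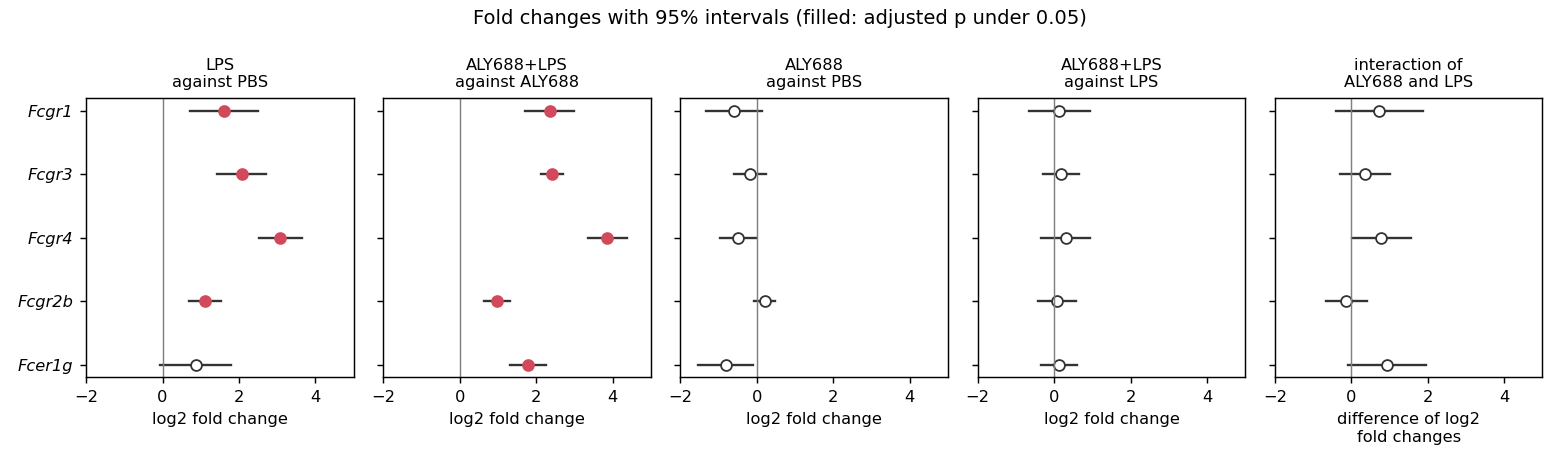
Log2 fold change of each gene (points) with its 95% interval (lines) in the 4 comparisons and the interaction; filled points passed at an adjusted p under 0.05 in edgeR. Fcgr4 lies farthest to the right and Fcgr2b stays near 1 in both comparisons across LPS, and no point is filled in the 3 panels for ALY688.

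Because the 4 receptors did not rise by the same factor, their proportions differed between mice with and without LPS. Ratios were taken per length within each mouse, so library scaling cancels, and they are described without a test since the genes were chosen as a set. The summed level of the 3 activating receptors was 7.32 times that of Fcgr2b with PBS (median, range 2.84 to 11.4) and 5.03 times with ALY688 (3.43 to 8.65). With LPS the ratio was 16.0, 13.02, 24.0 and 18.2 in mice 2, 6, 7 and 8, and with ALY688 and LPS it was 20.7 (15.9 to 29.5). All 11 mice with LPS thus lay above all 19 without. The libraries of few genes held the highest ratios of their own groups, up to 29.5 in mouse 8 of the combined group.

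Among the activating receptors, Fcgr4 gained on Fcgr3. The ratio of Fcgr4 to Fcgr3 had a median of 0.493 with PBS and 0.48 with ALY688. With LPS the 4 mice stood at 1.18, 1.23, 1.09 and 1.26, and with ALY688 and LPS the median was 1.38 (0.702 to 1.52). Mouse 4 of the combined group, at 0.702, lay within the ALY688 range. PBS mouse 8 was an exception at 1.76, since it held the highest Fcgr4 (20.3 CPM) and the lowest Fcgr3 (15.9 CPM) of its group. Of the summed level of the 4 receptors, the median share of Fcgr4 was 26.3% with PBS, 24.7% with ALY688, 47.8% with LPS and 51.8% with both. The median share of Fcgr2b was 12.015%, 16.6%, 5.55% and 4.60% in the same order. These ratios and shares depend on the length used. Per length of the longest coding transcript, Fcgr4 stood below Fcgr3 in each of the 4 LPS mice. The values were 65.1 against 71.1, 59.9 against 62.9, 109 against 129 and 103 against 105 RPKM. With ALY688 and LPS the medians on that length were 108 RPKM for Fcgr4 and 111 for Fcgr3. The 3 activating receptors also gained on their shared subunit: their sum was 0.218 times the level of Fcer1g with PBS, 0.242 with ALY688, 0.464 with LPS and 0.526 with both, and here too no mouse with LPS lay within the range of mice without it.

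**Figure D3:**
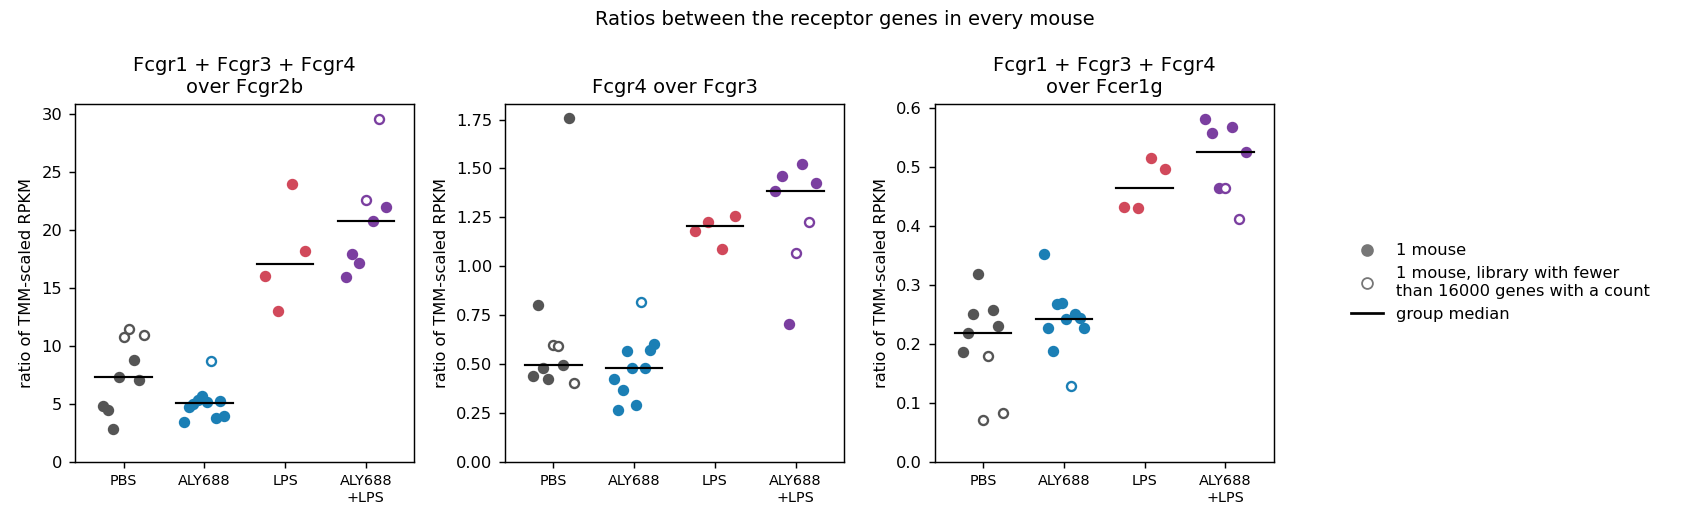
Ratios between the genes per length of exons in every mouse, for the 3 activating receptors over Fcgr2b, Fcgr4 over Fcgr3, and the 3 activating receptors over Fcer1g; points are mice, open points are libraries of few genes and lines are medians. In the left and right panels all mice with LPS lie above all mice without, and in the middle one PBS mouse 8, at 1.76, is the only mouse without LPS above 1.

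Markers of the cells that carry these receptors differed between the same groups. All 11 neutrophil markers rose with LPS against PBS (median log2 fold change 3.76). Their summed level was 594 to 2215 CPM in PBS mice and 541 to 1457 in ALY688 mice, against 4283 to 14777 in LPS mice and 5700.0 to 13696 in mice given both. Ly6g, a surface protein of mouse neutrophils, averaged 1.33 CPM with PBS and 29.4 with LPS. The level of Fcgr4 per 1000 CPM of summed neutrophil markers was 11.7 with PBS (median, 5.42 to 30.9), 10.2 with ALY688, 10.96 with LPS (9.26 to 17.6) and 12.7 with both, so it overlapped between all groups. Per 1000 CPM of summed nonclassical monocyte markers, Fcgr4 stood at 17.4 in PBS mice (9.46 to 28.2) and 13.9 in ALY688 mice, against 75.5 in LPS mice (50.5 to 108) and 114 in mice given both (41.3 to 151). On that marker list the mice with and without LPS did not overlap. Fcgr3 per 1000 CPM of summed neutrophil markers had a lower median with LPS, 12.4 (11.8 to 19.8) against 27.2 with PBS (18.5 to 39.2). The 2 ranges had a small overlap. Of 8 nonclassical monocyte markers 6 rose, among them Treml4 (15.8 to 70.7 CPM), while Cx3cr1, at 30.8 and 22.7 CPM, did not pass. With the globin share as a covariate 3 of these 8 markers rose. The sum of the 8 was 510 to 972 CPM with PBS and 1111 to 1671 with LPS. Of 7 natural killer cell markers 4 rose in LPS against PBS, 1 with the globin share as a covariate, and 2 in ALY688 with LPS against ALY688. The part of cell numbers in the rise of Fcgr4 and Fcgr3 was not tested.

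Classical monocyte markers, set beside Fcgr1, moved in both directions. Of 8 markers 5 rose with LPS against PBS, among them Csf1r, the receptor of macrophage colony-stimulating factor (122 to 405 CPM). F13a1, a clotting factor subunit shared with platelets, fell (434 to 99.6 CPM), and Ccr2, at 67.9 and 57.1 CPM, did not pass. Without the libraries of few genes 5 rose and 0 fell, and with the globin share as a covariate 3 rose and 0 fell. The summed level of the 8 markers was 583 to 1847 CPM with PBS and 1227 to 1491 with LPS. Fcgr1 per 1000 CPM of these markers was 6.92 with PBS (2.29 to 13.8) and 16.7 with LPS (9.48 to 21.5), with overlap. Most macrophage markers averaged about 1 CPM or less with PBS, so those tested passed the filter mainly through the LPS mice, and no count over the list is given. C1qb, a chain of complement C1q, averaged 1.01 CPM with PBS and 76.9 with LPS, and Marco, a scavenger receptor, was at 0 counts in all PBS mice and averaged 15.1 CPM with LPS. Their part in the rise of Fcgr1 was not tested.

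B cell markers went the other way from Fcgr2b. All 9 fell with LPS against PBS (median log2 fold change −2.65), among them Cd79a, a signalling chain of the B cell receptor, from 232 to 34.9 CPM. Without TMM scaling 5 of the 9 fell. Their summed level was 527 to 1733 CPM in PBS mice and 714 to 1516 in ALY688 mice, against 89.3 to 235 in LPS mice and 109 to 596 in mice given both. Fcgr2b per 1000 CPM of B cell markers was 21.4 in PBS mice (16.9 to 36.8) and 21.4 in ALY688 mice (18.9 to 33.3), against 340 in LPS mice (201 to 581) and 341 in mice given both (60.1 to 762). The mice with and without LPS did not overlap in this ratio. In the combined group, mouse 4 had the highest B cell marker sum and, at 35.8 CPM, the second lowest Fcgr2b. Among mice without LPS the lowest values of both went together: the 4 libraries of few genes held 527 to 846 CPM of B cell markers, against 830 to 1733 in the other 15, and the lowest Fcgr2b. PBS mouse 3 was the highest of these 19 mice in both. Which cells held the Fcgr2b transcripts with LPS was not tested.

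Platelet and erythroid markers were high in the same libraries as Fcer1g. The summed level of 7 platelet markers was 11333 to 26311 CPM in the 4 libraries of few genes without LPS, against 654 to 8059 in the other 15 mice without LPS. Summed erythroid markers, mostly globin, stood at 1548600 to 1951200 CPM on the TMM scale in these 4 libraries, against 328250 to 758640 in the other 15. On that scale these are the 4 libraries with the highest Fcer1g without LPS. Of the 7 markers 3 fell in LPS against PBS, with Gp6, the platelet partner of the gamma chain, at 266 and 52.6 CPM. Without the libraries of few genes 2 of the 7 fell, and with the globin share as a covariate all 7 stood above 0 and 1 rose. In ALY688 with LPS against ALY688, 0 of the 7 rose and 0 fell (median log2 fold change −0.25). Fcer1g per 1000 CPM of platelet markers was 19.1 in PBS mice (13.8 to 39.3) and 22.3 in ALY688 mice (14.8 to 72.0), against 113 in LPS mice (61.0 to 208) and 89.1 in mice given both (42.1 to 395). Against neutrophil markers the ratio went the other way: Fcer1g per 1000 CPM of these was 111 in PBS mice (91.2 to 358) and 89.7 in ALY688 mice (58.7 to 176), against 31.9 in LPS mice (24.7 to 57.0) and 30.3 in mice given both (25.4 to 38.0). The part of platelets, erythroid cells or neutrophils in the level of Fcer1g was not tested.

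**Figure D4:**
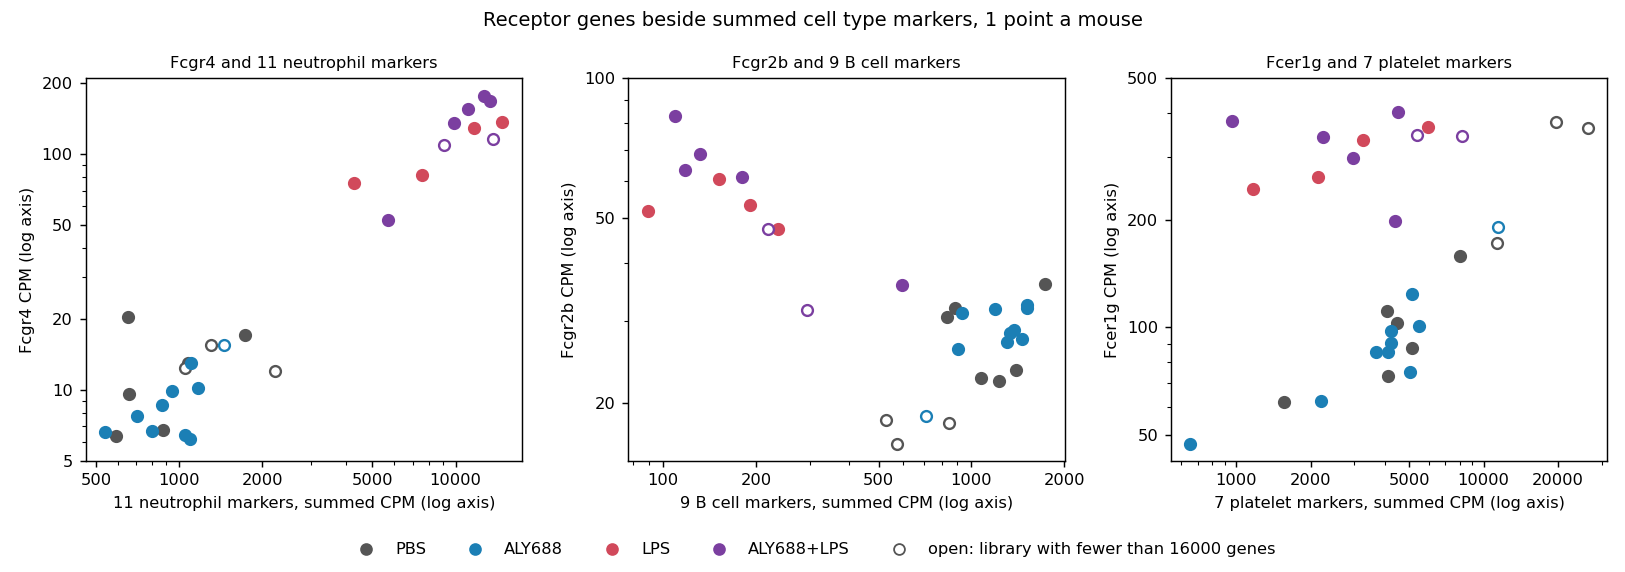
Level of Fcgr4, Fcgr2b and Fcer1g (vertical log axes, CPM) against the summed CPM of neutrophil, B cell and platelet markers (horizontal log axes); each point is 1 mouse, coloured by group, with open points for libraries of few genes. Fcgr4 is high where neutrophil markers are high. The highest Fcgr2b values are those of mice with LPS, whose B cell markers are mostly low. Mice 8 and 4 of the combined group, at 31.8 and 35.8 CPM, lie within the Fcgr2b range of mice without LPS, and mouse 4 does so for B cell markers too. Among mice without LPS the open points are lowest in Fcgr2b and lie at the low end of B cell markers. Without LPS the highest Fcer1g lies with the highest platelet markers.

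Genes around the receptors were described by lists, beside a median log2 fold change over all genes of −0.04 in LPS against PBS. In that comparison 38.7% of all genes passed, 20.9% higher and 17.9% lower, and in ALY688 with LPS against ALY688 53.0% did, 26.4% higher and 26.6% lower, so a list's count is read against these shares. Among 14 other Fc receptors 9 were tested, and 5 fell while 0 rose (median −1.32). The 5 were Fcer2a, the low-affinity immunoglobulin E receptor CD23 (99.98 to 8.51 CPM), Fcmr, Fcamr, which bind immunoglobulin M, and the B cell genes Fcrla and Fcrl1. In ALY688 with LPS against ALY688, 7 fell, and the ubiquitin ligase Trim21, a cytosolic Fc receptor, rose. Without TMM scaling the counts in LPS against PBS were 4 lower and 1 higher. The immunoglobulin G heavy chain genes, which encode the ligands, were low: of 4 genes only Ighg2b was tested in LPS against PBS, at 1.81 and 2.01 CPM (adjusted p = 0.724). In the other comparison Ighg2b fell by 1.08 on the log2 scale (edgeR adjusted p = 0.037).

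Partners of the gamma chain and related ITAM adaptors rose more often than they fell. Of 11 tested, 5 rose and 2 fell in LPS against PBS (median 1.09). Tyrobp, the adaptor DAP12, rose from 87.4 to 256 CPM, Clec4e, the lectin Mincle, from 8.73 to 77.1 CPM, and Clec4n, the lectin Dectin-2, from 1.04 to 7.80 CPM. Ncr1, a receptor of natural killer cells, rose from 9.00 to 29.1 CPM. The fifth was Cd300c2, and those that fell were Gp6 and Cd247, the T cell zeta chain. In ALY688 with LPS against ALY688, 6 rose and Cd247 fell.

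Of 18 genes of activating signalling downstream of the receptors, 9 rose and 1 fell in LPS against PBS (median 0.48), and 12 rose while Tec, Lat2 and Malt1 fell in the other comparison. Fgr, a Src family kinase, rose from 66.1 to 343 CPM, and Card9, an adaptor of Syk signalling, from 15.1 to 48.5 CPM. The gene that fell was the kinase Tec, from 22.6 to 8.20 CPM. Of 11 genes of inhibitory signalling, 4 rose and 0 fell (median 0.33): Ptpn6, the phosphatase SHP-1 (157 to 332 CPM), the adaptors Dok2 (16.9 to 53.9 CPM) and Dok3 (93.9 to 179 CPM), and Pag1 (46.5 to 112 CPM). Those 4 of 11 are a share near the 38.7% of all genes that passed, which is no result about the list. Without the libraries of few genes 7 rose. In ALY688 with LPS against ALY688, 7 rose and the ubiquitin ligase Cblb fell.

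Of 23 genes of phagocytosis tested, 9 rose while Gsn and Asap2 fell in LPS against PBS (median 0.41, beside 38.7% of all genes that passed), and 14 rose while Gsn and Limk1 fell in the other comparison (beside 53.0%). Marcks, which binds actin at the membrane, rose from 53.9 to 271 CPM, Vasp, an actin assembly factor, from 128 to 391 CPM, and Pld1, a phospholipase, from 1.78 to 6.99 CPM. Crk, an adaptor, rose from 34.4 to 58.8 CPM. Of 15 regulators known to act on Fc receptor expression, 9 rose and 0 fell (median 0.65), and 11 rose while Irf8 fell in the other comparison. Spi1, which encodes PU.1, rose from 79.9 to 316 CPM, and Cebpb, another myeloid factor, from 53.9 to 353 CPM. Ifngr2, a chain of the interferon gamma receptor, rose from 29.3 to 66.1 CPM, and Csf2rb, a shared cytokine receptor chain, from 41.5 to 234 CPM. Without TMM scaling, where the median of all genes in LPS against PBS was 1.04, 14 genes of activating signalling, 8 of inhibitory signalling and 20 of phagocytosis rose and 0 of each fell. Counts of the lists under other settings were made after the data were seen. No gene of these 7 lists passed in any of the 3 comparisons of ALY688.

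**Figure D5:**
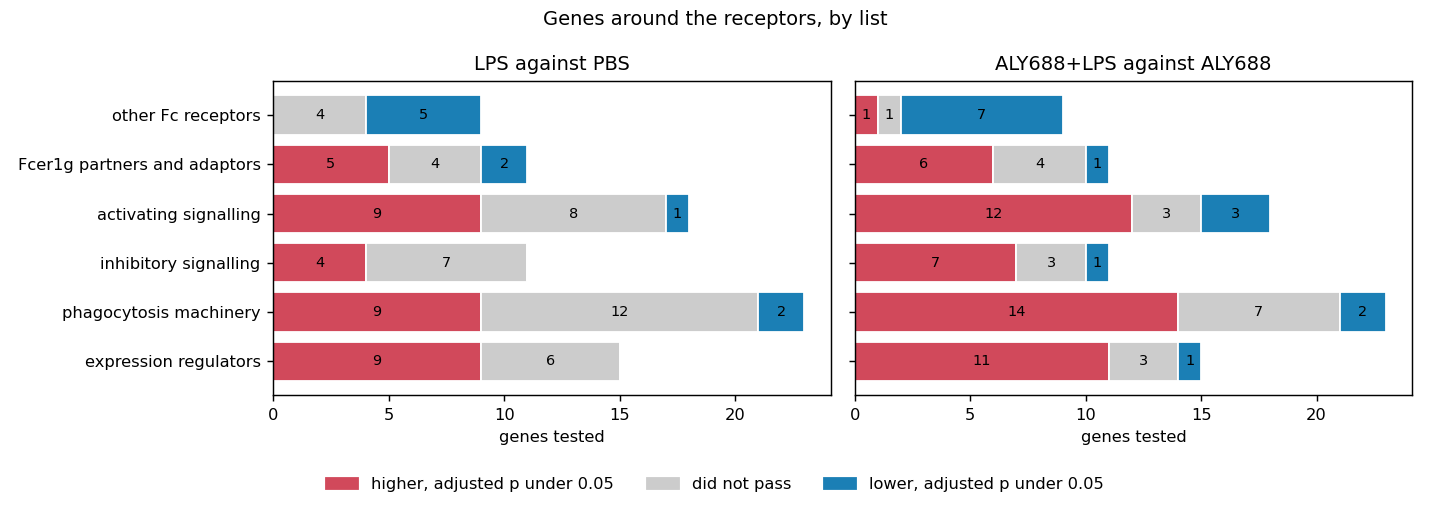
Number of genes tested in each list (horizontal axis) that were higher, lower or did not pass at an adjusted p under 0.05 in edgeR, for both comparisons across LPS. Other Fc receptors is the list with mostly lower genes (5 of 9 and 7 of 9), while higher genes outnumber lower ones in the other 5 lists.

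The genes whose levels were most like each member over the 30 libraries were found by Pearson's r of log2 CPM among 10683 genes. All such r values share the split between mice with and without LPS and the library scaling, so they are descriptions. They were Ms4a6d, Ms4a4a and Msr1 for Fcgr1 (r of 0.961, 0.956 and 0.946), Pygl, Anxa2 and Lpcat2 for Fcgr3 (0.989, 0.988 and 0.988), and Pilra, Fpr2 and Fpr1 for Fcgr4 (0.981, 0.981 and 0.977). For Fcgr2b they were Sh3bp2, Man2a1 and Ifnar1 (0.948, 0.939 and 0.932), and for Fcer1g Itgb2, Pgk1 and Prdx5 (0.975, 0.975 and 0.973). After each group's mean was subtracted, which removes the split, the highest were Ms4a6d (0.889), Anxa2 (0.903), Pilra (0.769), Sh3bp2 (0.869) and Itgb2 (0.959) for the 5 genes in the same order. Ms4a6d is a monocyte and macrophage membrane protein, and Itgb2 encodes the beta chain of leukocyte integrins. With group means subtracted, the r between members was 0.619 for Fcgr3 and Fcer1g, 0.529 for Fcgr4 and Fcer1g, 0.493 for Fcgr1 and Fcgr2b, 0.457 for Fcgr3 and Fcgr4 and 0.454 for Fcgr1 and Fcgr3. The other 5 pairs ran from −0.364, for Fcgr2b and Fcer1g, to 0.213. Fcgr2b was low and Fcer1g high on the TMM scale in the libraries of few genes without LPS.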

How the data were processed

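Read counts per gene, whole numbers and not normalized, were used as the authors deposited them, 1 table per mouse. The submitters' processing notes name HISAT2 2.0.5 (an aligner) and featureCounts 1.5.0-p3 (a read counter). Of 34 labelled samples, 30 had counts, and the other 4 were not analysed here. Libraries were made from polyadenylated RNA, per the labels' protocols, which cover a stranded and an unstranded kind without saying which was made. Symbols and positions came from GENCODE M21 on GRCm38, which matched 54409 of 54532 gene IDs.

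The filter on low counts was filterByExpr and the scaling TMM. Each comparison used edgeR 4.0.16 in R 4.3.3 (glmQLFit, robust, and a two-sided quasi-likelihood test), fitted on all genes with Benjamini-Hochberg adjustment at 0.05. Only the groups compared entered a fit, and all 4 entered the interaction. CPM values come from 1 TMM scaling over all 30 libraries. The scripts were tested on simulated data. DESeq2 1.42.0, other scalings, no filter, globin removal, the globin share as a covariate, libraries left out, all groups in one fit and a replicate block were the alternatives.

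The 5 genes, the lists and the limit of 16000 genes were chosen with earlier results of these data known. Every member is named, with up to 4 genes per list by the smallest p in LPS against PBS (mean of at least 1 CPM in either group). One gene that this rule names is not reported here. The 3 genes most like each member leave out predicted genes and those under 1 CPM. Other list genes named (Fcrl1, Trim21, Cd300c2, Gp6, Cd247, Lat2, Malt1, Cblb, Gsn, Asap2, Limk1 and Irf8) complete a count and were chosen after their values were seen. Libraries of a group differed by more than sampling noise (chi-square per degree of freedom of at least 8.75), so each counted as 1 mouse. At this depth, 3 counts stood between 0.0688 and 0.904 CPM on the TMM scale, for counting error only.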

Additional observations from a re-analysis of the deposited data

Results flagged for a closer look

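In 2 of the 20 groups of values examined (5 genes in 4 groups), 1 mouse lay far from the rest of its group by Dixon's gap ratio, which chance gives in about 1 group in 20. Both values belong to ALY688 mouse 7, whose library had fewer than 16000 genes with a count. Fcgr2b stood at 18.8 CPM there against 26.1 to 32.5 CPM in the other 9 ALY688 mice, and Fcer1g at 191 CPM against 47.0 to 124 CPM. The same library held the highest Fcgr4 (15.5 CPM) and the lowest Fcgr1 (1.66 CPM) of its group. Its TMM factor was 0.333, against 0.824 to 1.36 in the other 9. In unscaled counts it held the lowest value of its group for Fcer1g (693) and Fcgr4 (56), as for Fcgr2b (68) and Fcgr1 (6). Whether its few detected genes or its scaling factor account for the CPM values was not tested.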

How the results depend on the processing

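Treatment across LPS cannot be told apart from experiment, and 4 mice limit the LPS group. Without LPS, libraries of few genes stand apart in the TMM-scaled CPM of Fcer1g and Fcgr2b. In ALY688 with LPS against ALY688 each of the 5 genes passed under every setting run. In LPS against PBS, Fcgr3 and Fcgr4 passed under every setting, and 3 to 5 of the 5 genes did (3 with the globin covariate, which cost Fcgr1 and Fcgr2b their calls and gave Fcer1g one at 2.93, adjusted p = 0.010). With that covariate 3265 of all 12353 genes tested passed, against 4785 in the main fit. With library totals alone (no TMM) all genes had a median of 1.04 in LPS against PBS, the calls there split into 5600 higher and 296 lower (2577 and 2208 with TMM), and log2 fold changes less that median were 1.84 for Fcgr1, 2.10 for Fcgr3, 3.10 for Fcgr4, 1.04 for Fcgr2b and 1.23 for Fcer1g. In the same setting ALY688 with LPS against ALY688 gave 3049 calls in place of 6504. Median RPKM moved by more than 1 SD in 8 of 20 cases on the length of the longest coding transcript.

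In the 3 comparisons of ALY688, in which no gene of the 5 had passed, some signs changed. Library totals alone gave all genes a median of 0.497 for ALY688 alone, −0.495 for ALY688 under LPS and −0.998 for the interaction, and less that median each of these values keeps the sign it had with TMM. For ALY688 against PBS, Fcgr3 stood at 0.43 without TMM and 0.10 with the globin covariate, and Fcgr4 at 0.048 without TMM (−0.07 and −0.45 less the median for Fcgr3 and Fcgr4). For ALY688 with LPS against LPS without TMM, values were −0.34 (Fcgr1), −0.30 (Fcgr2b), −0.16 (Fcgr3), −0.0090 (Fcgr4) and −0.31 (Fcer1g), or 0.16, 0.20, 0.33, 0.49 and 0.19 less the median. Leaving out 1 mouse gave −0.018 to 0.34 for Fcgr1 and −0.059 to 0.16 for Fcgr2b. For the interaction without TMM, values were −0.28 (Fcgr1), −0.59 (Fcgr3), −0.057 (Fcgr4) and −0.25 (Fcer1g), or 0.72, 0.41, 0.94 and 0.75 less the median. Fcgr2b stood at 0.19 with the globin covariate and 0.16 without libraries of few genes, and the cause of sign changes outside the scaling was not tested. The interaction called 4 genes with DESeq2 and 0 to 1 with a mouse left out (1 without mouse 1 of the combined group).

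Mouse numbers are shared between groups, and the labels do not say what a shared number marks, so the main tests did not pair mice. Deviations of same-numbered mice from their group means had a median correlation of −0.02, −0.05, −0.01 and −0.37 in the 4 pairs of groups. Single values ran from −0.50 to 0.30. With 3 to 9 shared numbers per pair of groups, this cannot exclude a shared litter or day. With a replicate block, Fcer1g passed in LPS against PBS (1.31, adjusted p = 0.021), Fcgr2b stood at −0.21 in ALY688 with LPS against LPS, and calls over all genes were 3531 and 4870 in the comparisons across LPS and 0 in the others.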
